A study of Saccharomyces cerevisiae with 12 samples.

Results

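Wild-type yeast cells 30 min after release from a pheromone arrest (wild-type S) were compared with wild-type cells held in the arrest (wild-type G1), with the aim of describing the transcript programmes that differ between a G1-arrested cell and a cell in S-phase. The comparison used 8 of the 12 samples of the series, 4 replicates in each group, chosen by the group in their labels. All samples are budding yeast (Saccharomyces cerevisiae) of the W303 background, grown at 30 °C in rich medium with 2% raffinose, and polyadenylated RNA was sequenced. Wild-type G1 cells (strain YKR1500) were arrested with the mating pheromone α-factor for 2.5 h and then kept for another 3 h under the conditions used to induce replication, in which galactose is added to 2%. Wild-type S cells (strain E3087, the background that takes up the nucleoside analogue EdU) were arrested for 2.5 h, washed and released into fresh medium for 30 min. The groups thus differ in strain, in the time spent in pheromone and in the handling before harvest as well as in cell cycle phase, and these cannot be told apart. The labels do not say that the replicates came from separate cultures, so that p-values measure the spread between these samples, which may be technical.

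The counts on genes came to 8162140 in the shallowest sample and 10545835 in the deepest. Of 6412 genes and other features, 5662 had enough counts to be tested, and 4743 of them (83.8%) passed the quasi-likelihood test of edgeR (p-values adjusted after Benjamini and Hochberg, threshold 0.1). A gene is said below to have risen or fallen in wild-type S where it passed this test, which 2289 genes (40.4%) did upwards and 2454 (43.3%) downwards. Because so many genes passed, a second test asked for a change beyond 2-fold. By it 286 genes (5.05%) rose and 569 (10.0%) fell, and the counts of each gene list are to be read against these shares. Levels are given as CPM, the counts divided by the TMM-scaled library size and scaled to 1e+06, and a log2 fold change is wild-type S minus wild-type G1. Within a group, the first 2 replicates were alike, and so were the last 2. The tests treat the 4 replicates of a group as independent, and p-values may be too small where such pairs are not. The labels do not explain these pairs. Many values that differ between them are given by replicate, but others only as a mean with its SD or as a count of genes. Relative to the gene counts, ERCC spike-in RNA added to the total RNA made up 2.28% ± 0.128 (SD, n = 4) in wild-type G1 samples and 2.06% ± 0.193 in those of wild-type S (two-sided exact permutation test, p = 0.1143, where the smallest p possible is 0.0286). Less RNA per cell and fewer cells of a kind cannot be told apart in such bulk samples.

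**Figure D1:**
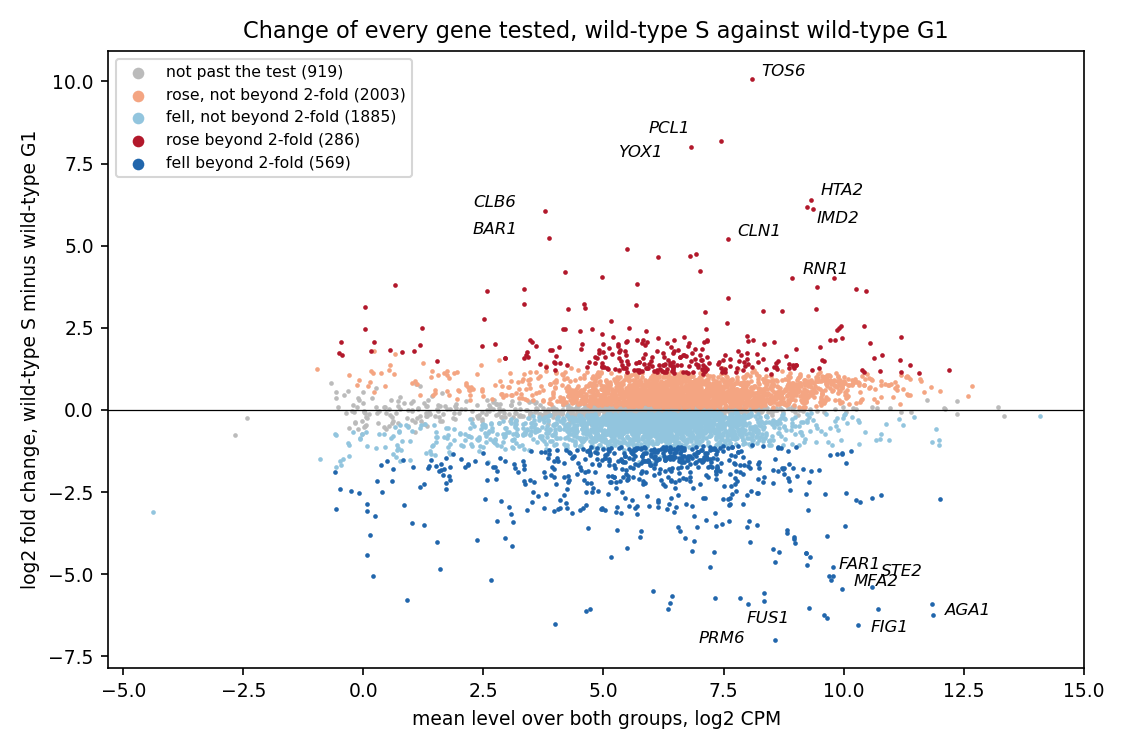
Log2 fold change, wild-type S minus wild-type G1 (y axis), against the mean level of both groups in log2 CPM (x axis), 1 point per gene tested and 4 replicates a group. The 286 genes that rose beyond 2-fold reach a log2 fold change of 10.08 (TOS6) and the 569 that fell beyond 2-fold reach -7.00 (PRM6).

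Haploid yeast cells of mating type a carry the receptor Ste2 for α-factor. Bound receptor acts through a G protein and a MAP kinase cascade on the transcription factor Ste12, which binds pheromone response elements (PRE, TGAAACA) and switches on the genes of mating, while Far1 holds the cell in G1 by inhibiting the G1 cyclin kinase. When pheromone is removed, the transcription factors SBF (Swi4 with Swi6) and MBF (Mbp1 with Swi6) drive the G1/S genes through SCB and MCB elements, and cells commit to division, bud and replicate their DNA. Forkhead factors act later on the genes of G2 and mitosis.

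Of these elements, the PRE was found in 8 of the 12 promoters of the largest falls. MCB and SCB were each found in only 1 of the 12 promoters of the largest rises. Matches were sought on both strands of the 300 bases before the start codon of 5970 protein-coding genes, of which 5585 were tested, in the R64 sequence from RefSeq. The letters sought were ACGCGT for MCB, CGCGAAA for SCB, TGAAACA for PRE, GTAAACA for forkhead factors, TGACTC for Gcn4 and GATGAG for PAC, an element of ribosome biogenesis genes. MCB and SCB matches overlapped at 2 places. PRM1, FUS1, FUS2, BAR1, HTB1 and HHF2 are shown because their promoters hold the most matches among the largest rises, the largest falls and the core histone genes. SUR7 ranked with them, with a forkhead and a Gcn4 site, and is not shown. AGA1, with 1 PRE, stands for the promoters with a single match. POL1 and CDC21 were added after their values were seen, for the MCB pairs of the replication genes. Each stretch has 160 bases and runs 5′ to 3′ on the strand of the gene, which is the plus strand where not stated, and capitals mark the matches on either strand, so that a PRE on the other strand reads TGTTTCA.
PRM1 (chr14:110670-110829): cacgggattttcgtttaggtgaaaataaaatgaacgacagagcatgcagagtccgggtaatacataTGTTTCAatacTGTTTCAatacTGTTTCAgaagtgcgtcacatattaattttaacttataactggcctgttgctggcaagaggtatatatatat
FUS1 (chr3:71538-71697): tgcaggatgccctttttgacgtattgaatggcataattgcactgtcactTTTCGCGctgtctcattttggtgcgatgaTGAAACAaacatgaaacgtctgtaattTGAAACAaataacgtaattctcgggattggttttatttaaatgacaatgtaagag
FUS2 (chr13:736639-736798): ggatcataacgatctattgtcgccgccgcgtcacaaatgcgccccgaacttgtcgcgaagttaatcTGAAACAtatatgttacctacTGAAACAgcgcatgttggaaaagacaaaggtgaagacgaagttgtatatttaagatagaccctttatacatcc
AGA1 (chr14:703420-703579): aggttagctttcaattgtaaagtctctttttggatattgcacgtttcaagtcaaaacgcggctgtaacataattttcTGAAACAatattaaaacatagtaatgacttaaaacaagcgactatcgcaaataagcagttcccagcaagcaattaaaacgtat
BAR1 (chr9:322042-322201): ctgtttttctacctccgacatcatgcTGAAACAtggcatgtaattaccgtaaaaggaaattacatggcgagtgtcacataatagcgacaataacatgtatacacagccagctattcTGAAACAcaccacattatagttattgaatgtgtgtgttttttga
HTB1 (chr4:914853-915012, minus strand): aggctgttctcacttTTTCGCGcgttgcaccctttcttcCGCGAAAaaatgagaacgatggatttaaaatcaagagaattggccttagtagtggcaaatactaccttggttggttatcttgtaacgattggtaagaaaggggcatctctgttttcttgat
HHF2 (chr14:576462-576621): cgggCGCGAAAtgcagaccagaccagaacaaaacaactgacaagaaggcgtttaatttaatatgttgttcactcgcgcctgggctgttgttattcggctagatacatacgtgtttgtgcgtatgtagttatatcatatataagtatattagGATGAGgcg
POL1 (chr14:429819-429978): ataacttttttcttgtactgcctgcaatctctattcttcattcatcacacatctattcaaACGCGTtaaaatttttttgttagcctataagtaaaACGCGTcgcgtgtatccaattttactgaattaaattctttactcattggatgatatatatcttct
CDC21 (chr15:467647-467806, minus strand): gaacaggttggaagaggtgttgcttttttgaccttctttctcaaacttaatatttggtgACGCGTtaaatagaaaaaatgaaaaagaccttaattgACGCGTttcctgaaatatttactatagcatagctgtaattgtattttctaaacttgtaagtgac

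PRM1 holds 3 PREs, at 181, 170 and 159 bases before its start codon, and FUS1 and FUS2 hold 2 each. Among all promoters of genes tested, 7.02% held a PRE, 3.65% an MCB and 4.10% an SCB. Of the 547 promoters of genes that fell beyond 2-fold, 11.9% held a PRE, and of the 283 of genes that rose beyond 2-fold, 12.01% held an MCB, 15.9% an SCB and 17.0% a forkhead site, against 7.20% of all promoters of genes tested for the last. For PRE and MCB, genes with at least 2 matches changed more than those with 1, in the median and in the share beyond 2-fold. For SCB the medians were alike, 0.55 for the 7 genes with at least 2 and 0.54 for those with 1. Of the 12 genes with at least 2 forkhead sites 0 rose beyond 2-fold, though their median was 0.26 against 0.18 with 1. Medians also moved for PAC, from 0.14 with 1 match to 0.41 with at least 2, and for the Gcn4 site, from -0.03 to -0.40. Of 17 genes with at least 2 PREs, 10 fell beyond 2-fold (58.8%) and their median log2 fold change was -1.78. Of 22 genes with at least 2 MCBs, 10 rose beyond 2-fold (45.5%), 0 fell beyond 2-fold and the median was 1.07, and they include POL1, CDC21, RAD27, CDC45, RFA1, RFA2 and the checkpoint kinase gene RAD53. A match is a description of letters and not a binding site: MCM5, with 2 SCBs, fell with a log2 fold change of -2.13. BAR1, with 2 PREs, rose, but there a difference in the locus between the strains cannot be told apart from a difference in expression. Of the 12 genes with the largest rises, only PCL1 held an SCB and only MCD1 an MCB in this window, and 8 of the 12 with the largest falls held a PRE. Genes with at least 1 match had median log2 fold changes of -0.05 for the Gcn4 site, 0.20 for PAC, 0.18 for the forkhead site and -0.16 for PRE, against -0.02 for all genes tested.

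**Figure D2:**
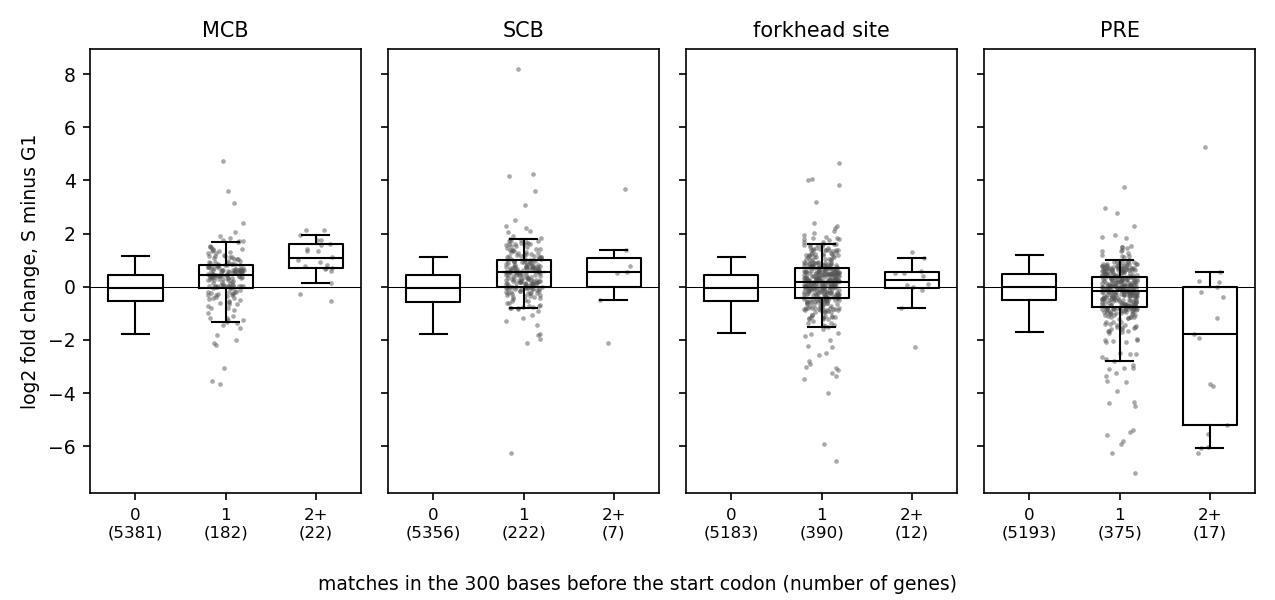
Log2 fold change, wild-type S minus wild-type G1, of the genes tested by the number of matches to MCB, SCB, the forkhead site and PRE in the 300 bases before the start codon, with the number of genes in brackets. Boxes span the quartiles with the median as a line, whiskers the 5th to the 95th percentile, and points are single genes. The 22 genes with 2 or more MCBs have a median of 1.07 and the 17 with 2 or more PREs a median of -1.78.

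The G1/S programme was high in wild-type S. TOS6, a cell surface protein gene and SBF target, changed most of all genes (chromosome 14, 65744 to 66052). It had 0.567, 0.298, 0.673 and 0.419 CPM in the replicates of wild-type G1 and 494, 460, 607 and 625 CPM in those of wild-type S (log2 fold change 10.08, standard error 0.17, adjusted p = 2.19e-14). PCL1, a cyclin of the Pho85 kinase, rose from 1.19 ± 0.378 CPM (SD, n = 4) to 346 ± 41.95 CPM. The G1 cyclin CLN1 had 8.89, 7.25, 12.8 and 11.7 CPM in wild-type G1 and 334, 344, 404 and 411 CPM in wild-type S (log2 fold change 5.20), and its partner CLN2 rose 6.21-fold, from 52.6 ± 3.08 to 327 ± 30.5 CPM. Both S-phase cyclins rose as well. CLB5 went from 17.0 ± 1.72 to 71.7 ± 6.84 CPM, and CLB6 had 0.378, 0, 0.481 and 0.733 CPM in wild-type G1 and 21.9, 21.2, 34.0 and 31.2 CPM in wild-type S. In none of these genes did the groups overlap, and in wild-type S replicates 3 and 4 lay above replicates 1 and 2.

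The list of G1 and S cyclins and their regulators also had members that fell, 8 of 19 against 7 that rose. FAR1, which inhibits the G1 cyclin kinase in pheromone, had 1681, 1708, 1538 and 1536 CPM in wild-type G1 and 48.1, 48.2, 49.9 and 48.4 CPM in wild-type S, 33.2-fold lower (log2 fold change -5.05, standard error 0.06, adjusted p = 1.09e-15). PCL2, another Pho85 cyclin, moved opposite to PCL1 and fell from 965 ± 63.3 to 58.0 ± 13.1 CPM. CLN3, the cyclin that acts furthest upstream at the entry into the cycle, fell 3.74-fold. SIC1, an inhibitor of the S-phase cyclin kinase, and CDC28, the kinase itself, fell with log2 fold changes of -0.61 and -0.62. SWE1, a kinase that restrains Cdc28 before mitosis, rose with a log2 fold change of 2.21.

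Of 17 G1/S transcription factors and regulators, 13 rose and 3 fell. The rises were led by repressors that are themselves made at G1/S. YOX1, a repressor acting with Mcm1, had 0.756, 0.398, 0.769 and 1.57 CPM in wild-type G1 and 199, 202, 262 and 238 CPM in wild-type S (log2 fold change 8.01). NRM1, the corepressor that closes MBF transcription as S-phase proceeds, rose 25.3-fold to 136 ± 12.9 CPM. TOS4, a forkhead-associated protein of chromatin, rose 18.7-fold to 245 ± 24.1 CPM, and YHP1, a relative of YOX1, had a log2 fold change of 3.84. The components of SBF and MBF changed less, with log2 fold changes of 0.76 for SWI4, 0.47 for SWI6 and 0.24 for MBP1. WHI5, the inhibitor of SBF, rose 2.16-fold. MSA1, a coactivator of the same factors, fell from 73.4 ± 4.27 to 16.50 ± 2.67 CPM.

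**Figure D3:**
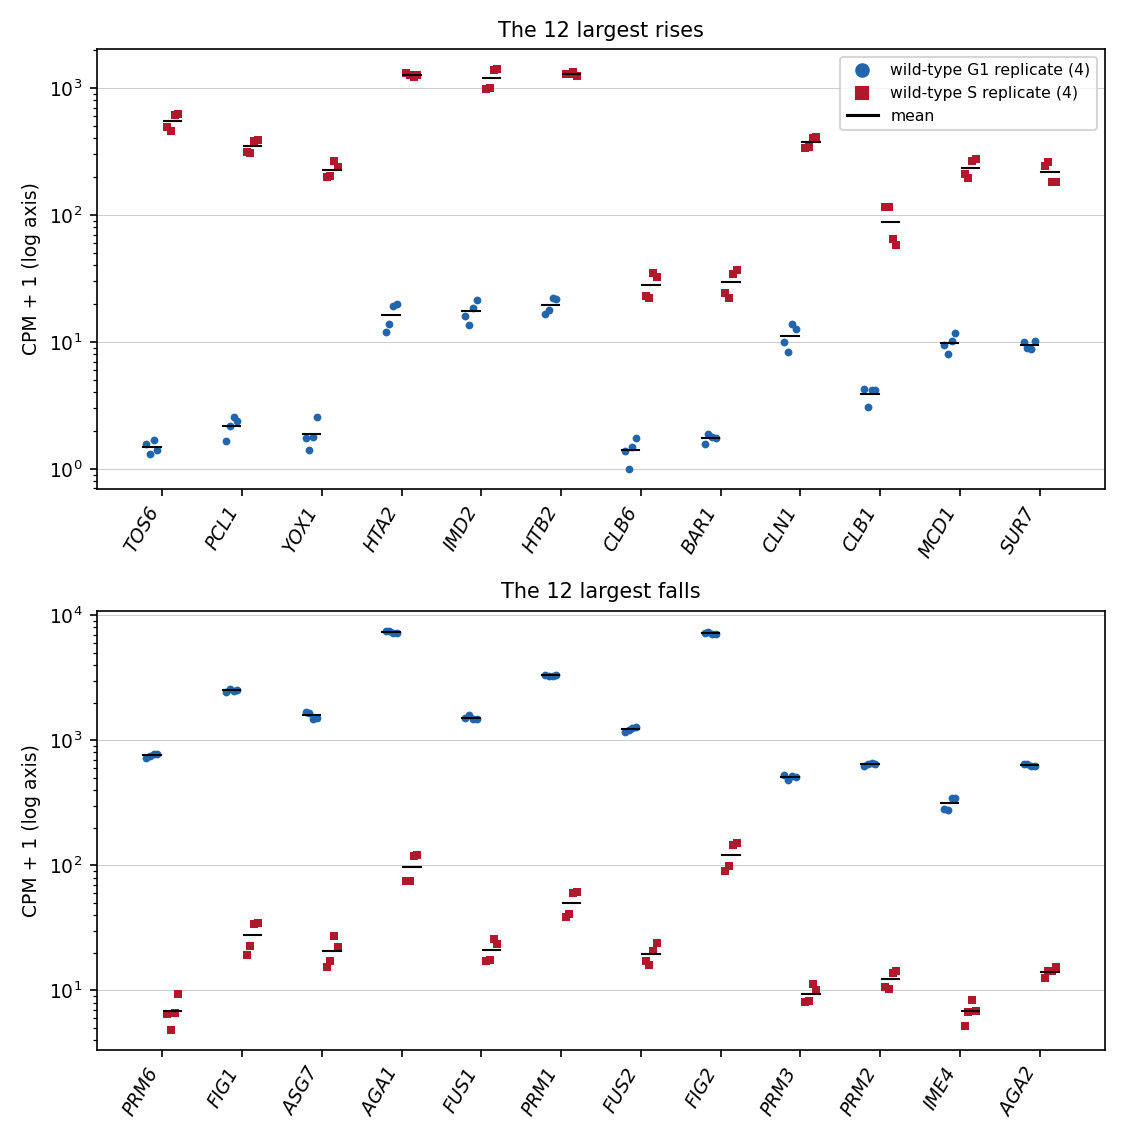
Level of the 12 genes with the largest rises (upper panel) and the 12 with the largest falls (lower panel), as CPM + 1 on a log axis, 1 point per replicate (4 per group) with the mean as a line. Genes were chosen among coding genes changed beyond 2-fold whose groups do not overlap. TOS6 goes from 0.489 to 547 CPM and PRM6 from 759 to 5.81 CPM.

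Genes of the growing bud and the cell surface changed in both directions. Among 20 SBF targets of bud growth and the cell surface, TOS6 included, 14 rose, 9 of them beyond 2-fold, and 5 fell. GIC1, an effector of the polarity GTPase Cdc42, rose 18.3-fold from 1.90 ± 0.362 to 34.8 ± 4.70 CPM. Its paralogue GIC2 moved the other way, with 443, 472, 504 and 511 CPM in wild-type G1 and 100, 94.5, 130 and 125 CPM in wild-type S. SRL1, a mannoprotein gene, rose from 96.4 ± 3.59 to 1300 ± 22.2 CPM and MNN1, a mannosyltransferase gene, 10.5-fold. SUR7, which encodes a protein of the eisosome domains of the plasma membrane, rose 25.6-fold, with 241 and 261 CPM in replicates 1 and 2 of wild-type S and 181 and 180 CPM in replicates 3 and 4.

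The cell wall list held 12 members that rose and 16 that fell, 9 of them beyond 2-fold, and its summed level was 27267 to 30859 CPM in wild-type G1 and 31362 to 33671 CPM in wild-type S. GAS1, a glucan-remodelling enzyme of growing walls, rose from 823 ± 11.9 to 3846 ± 86.9 CPM. The chitin synthase gene CHS1 fell 14.2-fold from 1495 ± 59.8 CPM and CHS3 fell 4.03-fold from 836 ± 30.0 CPM. PIR1, a wall protein gene, had 145, 146, 243 and 249 CPM in wild-type G1 and 7.53, 9.91, 17.4 and 17.3 CPM in wild-type S. Outside the list, and chosen after their values were seen, SLT2, the MAP kinase of cell wall integrity, had a log2 fold change of -3.04 and GFA1, the first enzyme of chitin precursor synthesis, one of -2.81. Of 30 septin and polarity genes, 15 rose and 13 fell, shares close to those of all genes. BUD4 and GIN4, which act at the septin ring, rose with log2 fold changes of 2.39 and 1.66, and the polarity scaffold BEM1 and the Cdc42 regulator RGA1 fell with -1.40 and -1.78.

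Among the genes of DNA replication, most of those of the fork rose and those of the helicase ring fell. Of 17 genes of the polymerases and the clamp, 14 rose, 4 of them beyond 2-fold, and of 24 genes of the fork and of Okazaki fragment processing, 20 rose, 7 of them beyond 2-fold, and 3 fell (DNA2 with a log2 fold change of -0.74, DCC1 with -0.23 and TOP1 with -0.20). POL1, the catalytic subunit of polymerase α, had 52.8, 51.4, 58.0 and 50.6 CPM in wild-type G1 and 202, 212, 255 and 261 CPM in wild-type S (log2 fold change 2.13, standard error 0.08, adjusted p = 4.47e-11). The sliding clamp gene POL30 and the polymerase ε gene POL2 had log2 fold changes of 1.31 and 1.42, and the polymerase δ gene POL3 one of 0.86. The flap nuclease gene RAD27 rose 3.08-fold from 47.3 ± 3.49 CPM and CDC45, a helicase cofactor, 2.66-fold from 33.7 ± 2.25 CPM. The genes of the single-strand binding protein RPA rose together, with log2 fold changes of 0.92 for RFA1, 1.72 for RFA3 and a value between them for RFA2. The smaller primase subunit gene PRI1 was the only member of the polymerase list that fell, at 72.2 ± 4.38 and 64.2 ± 6.11 CPM (log2 fold change -0.17), and did not pass the test without replicate 1 of wild-type S (log2 fold change -0.11) or with spike-in scaling (-0.09).

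The origin licensing and firing list of 21 genes had 7 members that rose and 10 that fell. All 5 that fell beyond 2-fold are subunits of the MCM helicase, which is loaded at origins in G1. MCM5 had 121, 130, 113 and 114 CPM in wild-type G1 and 25.5, 25.7, 27.1 and 30.9 CPM in wild-type S, 4.39-fold lower (log2 fold change -2.13, standard error 0.06, adjusted p = 3.7e-12). MCM7 fell 4.09-fold and MCM2 2.80-fold, and MCM3 and MCM4 had log2 fold changes of -1.65 and -1.19. MCM6 was the least changed of the ring genes, at -0.51. The loader gene CDC6 rose from 8.38 ± 0.882 to 16.48 ± 1.17 CPM. Of the genes of limiting firing factors, SLD2, DBF4 and DPB11 rose by less than 2-fold, with log2 fold changes of 0.65, 0.37 and 0.22. CDC45, given above with the fork genes, rose by more than 2-fold.

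Deoxynucleotide supply rose with the fork genes. Of 13 genes, 11 rose and 0 fell, where 43.3% of all genes fell. RNR1, the large subunit of ribonucleotide reductase, had 52.9, 57.7, 57.9 and 57.9 CPM in wild-type G1 and 821, 829, 1034 and 1005 CPM in wild-type S (log2 fold change 4.03, standard error 0.09, adjusted p = 1.42e-13). CDC21, thymidylate synthase, rose 3.85-fold to 172 ± 20.2 CPM. The small subunit genes differed: RNR2 had a log2 fold change of 0.81, and RNR4 had 515 ± 17.3 CPM in wild-type G1 and 497 ± 13.2 CPM in wild-type S (adjusted p = 0.347), a fall that passed the test when scaled by library totals (log2 fold change -0.12). RNR3, the damage-inducible large subunit, stayed low in both groups at 7.40 ± 1.74 and 11.4 ± 0.812 CPM.

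**Figure D4:**
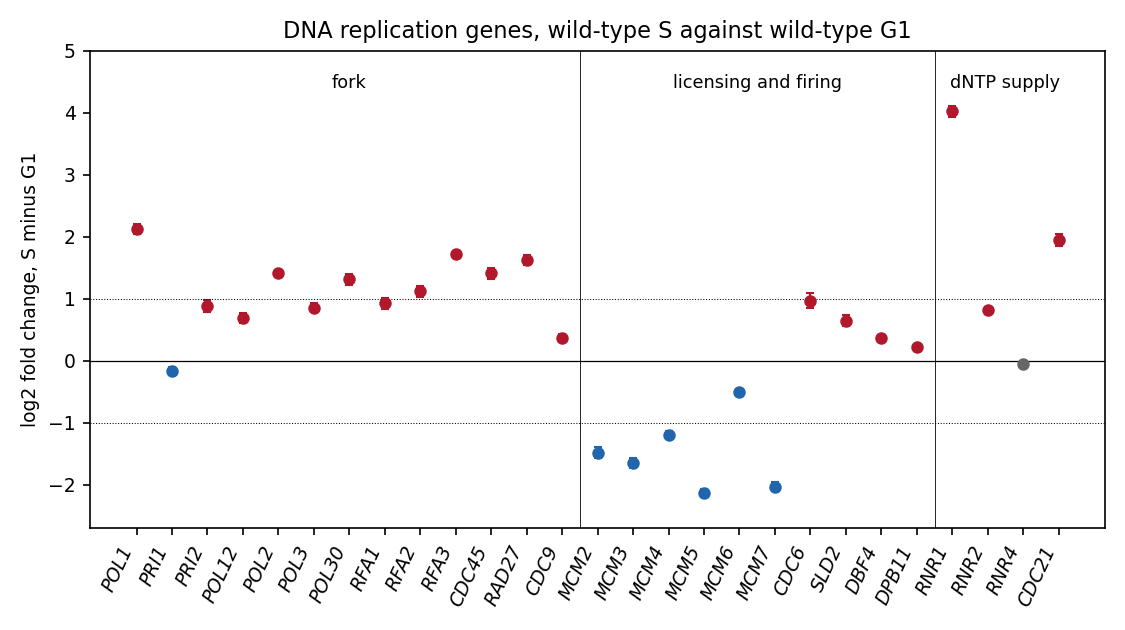
Log2 fold change, wild-type S minus wild-type G1, of 27 replication genes with its standard error as a bar (mostly smaller than the point), 4 replicates a group. Red points rose, blue points fell and grey did not pass the test, and dotted lines mark a 2-fold change. Of the 13 fork genes shown 12 lie above 0 and PRI1 at -0.17, the 6 MCM genes lie between -2.13 and -0.51, and RNR1 lies at 4.03.

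The 8 core histone genes all rose beyond 2-fold, with a median log2 fold change of 3.37. Their summed level was 1289 to 1366 CPM in wild-type G1 and 12071 to 12532 CPM in wild-type S, a ratio of 9.11. The genes were far apart in G1 and close together in S. HTA2 and HTB2, the divergent H2A and H2B pair on chromosome 2, had 15.2 ± 3.88 and 18.6 ± 2.68 CPM in wild-type G1 and 1268 ± 38.6 and 1295 ± 39.9 CPM in wild-type S, changes of 83.3-fold and 69.8-fold. The other H2A and H2B pair started higher. HTA1 had 300, 307, 273 and 271 CPM in wild-type G1 and 1733, 1695, 1667 and 1656 CPM in wild-type S, and HTB1, whose promoter with 2 SCBs is shown above, rose 12.7-fold from 178 ± 3.21 CPM. The H4 genes HHF1 and HHF2 rose 16.2-fold and 8.43-fold, and the H3 genes HHT1 and HHT2 3.79-fold and 5.65-fold. Paralogous histone genes are alike in sequence and reads that fit several places were not counted, so that their levels carry this uncertainty.

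Linker histone HHO1 and the H2A variant HTZ1 rose 4.25-fold and 2.89-fold. Of 16 genes of histone variants, regulators and assembly factors, 13 rose and 1 fell, among them SPT21, an activator of histone genes (log2 fold change 1.49), and CAC2 of the assembly factor CAF-1 (1.14). SPT10, the partner of SPT21, did not pass the test (0.05).

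Cohesion and spindle genes were higher in wild-type S. Of 11 cohesin genes, 10 rose and 6 did so beyond 2-fold. MCD1, the subunit that closes the cohesin ring, had 8.41, 6.96, 9.23 and 10.7 CPM in wild-type G1 and 208, 195, 263 and 274 CPM in wild-type S, 26.6-fold higher (log2 fold change 4.74). The other ring genes rose less, SMC3 3.18-fold and SMC1 with a log2 fold change of 0.82. The securin gene PDS1 and the separase gene ESP1 rose with 1.74 and 1.13. Of 17 spindle pole body genes, 15 rose, 7 of them beyond 2-fold, led by SPC97 of the γ-tubulin complex (4.33-fold). Of 18 spindle genes, 15 rose, with CIN8 and KIP1, both mitotic motors, at 1.45 and 1.46. Of 33 repair and checkpoint genes, 21 rose and 7 fell, with a median of 0.27. MSH6 of mismatch repair (1.34) and the checkpoint kinase RAD53 (1.02) rose, and the checkpoint kinase MEC1 and the translesion polymerase RAD30 fell (-0.47 and -0.58).

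Genes of G2 and mitosis were split. Of 26 genes of the CLB2 cluster, 13 rose and 12 fell, 9 and 6 of them beyond 2-fold. CLB1, a mitotic cyclin, had 3.21, 2.09, 3.17 and 3.14 CPM in wild-type G1 and 114, 113, 63.7 and 56.8 CPM in wild-type S (log2 fold change 4.89). SWI5, a transcription factor made for mitotic exit, had 56.7, 55.8, 34.3 and 29.8 CPM in wild-type S against 5.16 ± 1.39 CPM in wild-type G1. Both were above wild-type G1 in every replicate, and higher in replicates 1 and 2 than in 3 and 4. CLB2, the main mitotic cyclin, reached only 92.1, 89.2, 59.8 and 64.6 CPM from 46.1 ± 8.96 CPM. CHS2, the chitin synthase of the septum, had 66.8 and 72.2 CPM in replicates 1 and 2 of wild-type S and 42.1 and 37.6 CPM in replicates 3 and 4, against 40.2 ± 2.18 CPM in wild-type G1. It did not pass the test without replicate 1 or without replicate 2 of wild-type S (log2 fold changes 0.32 and 0.28 against 0.44) and its sign turned with replicates 3 and 4 only (-0.03).

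Members of the same cluster that act at anaphase and at mitotic exit were lower in wild-type S. CDC20, the activator of the anaphase-promoting complex, fell 6.38-fold from 75.6 ± 6.03 CPM and DBF2, a kinase of the mitotic exit network, 10.2-fold from 257 ± 20.0 CPM. The SIC1 cluster of mitotic exit and early G1 had 12 of 19 members that fell, 8 of them beyond 2-fold, and 2 that rose. ASH1, the repressor of mating type switching, had 167, 177, 150 and 153 CPM in wild-type G1 and 24.4, 25.2, 28.2 and 28.4 CPM in wild-type S. The chitinase gene CTS1, which acts in the separation of mother and daughter, had 222, 237, 120 and 123 CPM in wild-type G1 and 47.1 ± 7.51 CPM in wild-type S, and RME1 fell 4.74-fold. EGT2 and DSE2, further genes of cell separation, did not pass the test, with log2 fold changes of -0.08 and -0.40. Both depended on the pair of replicates: DSE2 fell with replicates 1 and 2 only (-0.84) and without replicate 3 or 4 of wild-type G1 (-0.59 and -0.53) but rose with replicates 3 and 4 only (0.25), and EGT2 fell with replicates 3 and 4 only (-0.30).

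The mating programme was high in wild-type G1 and low 30 min after release. Of 24 genes of the pheromone receptor and MAP kinase pathway, 22 fell, 13 of them beyond 2-fold, and only PTP3, a phosphatase, rose (0.64). The receptor gene STE2 had 3158, 3231, 2786 and 2800 CPM in wild-type G1 and 58.5, 62.5, 81.8 and 79.4 CPM in wild-type S, 42.5-fold lower (log2 fold change -5.40, standard error 0.11, adjusted p = 1.24e-13). The Gα subunit GPA1 fell 18.7-fold, the MAP kinase FUS3 13.4-fold and the regulator SST2, which turns the G protein off, 20.6-fold. The transcription factors fell by different amounts: KAR4, a cofactor of Ste12 for the genes of nuclear fusion, fell 36.6-fold, TEC1, the cofactor of filamentous growth, 12.6-fold and STE12 itself 5.59-fold, from 370 ± 19.7 to 66.2 ± 3.19 CPM. The kinases upstream of FUS3 changed less than FUS3 itself, with log2 fold changes of -0.34 for STE7 and -0.96 for STE11, and STE20 did not pass the test (0.05).

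Genes of agglutination and fusion fell further. Of 20 such genes, 17 fell, 16 of them beyond 2-fold, and the median log2 fold change was -4.12. Their summed level was 37373 to 38348 CPM in wild-type G1 and 3653 to 4469 CPM in wild-type S. AGA1, which anchors the a-agglutinin at the surface, had 7465, 7552, 7238 and 7222 CPM in wild-type G1 and 73.4, 74.0, 117 and 120 CPM in wild-type S (log2 fold change -6.26). FIG2, another wall adhesin, fell from 7179 ± 146 to 120 ± 30.9 CPM and FIG1, a membrane protein of mating, 94.3-fold from 2506 ± 71.0 CPM. FUS1 and FUS2, which act in cell fusion, fell 75.8-fold and 66.2-fold. The residual level in wild-type S was higher in replicates 3 and 4 than in replicates 1 and 2 for each of these genes.

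The PRM genes, named for their regulation by pheromone, behaved alike apart from 2 members. Of 10, 9 fell and 8 did so beyond 2-fold. PRM6 (chromosome 13, 180017 to 181075) had 724, 751, 779 and 783 CPM in wild-type G1 and 5.48, 3.81, 5.54 and 8.42 CPM in wild-type S, 131-fold lower and the largest fall of any gene tested. PRM1, which stabilizes the fusing membranes, fell 67.0-fold, PRM2 56.9-fold and PRM3, of nuclear envelope fusion, 60.3-fold. PRM7 fell only with a log2 fold change of -0.57, and PRM9 rose from 0.817 ± 0.270 to 2.12 ± 0.582 CPM.

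Production of a-factor, the pheromone that these cells secrete, was split. Of 11 genes of its synthesis and export and BAR1, 7 fell, 4 of them beyond 2-fold, and 3 rose, with a median of -0.18. The precursor genes MFA1 and MFA2 fell 20.7-fold and 44.4-fold, and the exporter gene STE6 fell 20.2-fold from 768 ± 15.6 CPM. ASG7, a gene of a cells that acts on signalling, fell 81.0-fold. The processing protease genes STE24 and RCE1 rose with log2 fold changes of 0.28 and 0.97. BAR1 rose most. It encodes the protease that degrades α-factor, is known as a pheromone-induced gene, and had 0.567, 0.894, 0.769 and 0.733 CPM in wild-type G1 against 23.3, 21.2, 33.4 and 35.6 CPM in wild-type S, 38.3-fold higher (log2 fold change 5.25). Its promoter shown above holds 2 PREs, at 274 and 184 bases before the start codon. The strains of the groups differ and their genotypes were not used here, so that a difference in the BAR1 locus and a difference in its expression cannot be told apart.

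The labels were also checked with genes of the other mating type and of meiosis. The α-specific genes STE3 and SAG1 stood at 4.67 ± 0.774 and 38.5 ± 5.14 CPM in wild-type G1 and at 2.28 ± 0.248 and 31.3 ± 0.798 CPM in wild-type S, while STE2 was high in G1. Of 17 genes of meiosis and sporulation tested, 4 rose and 9 fell. SPO11, which makes the breaks of meiotic recombination, fell 46.6-fold from 127 ± 18.6 CPM and carries 2 PREs in its promoter. IME4, which encodes an RNA methyltransferase of meiosis and is not in that list but among the 12 largest falls, had 281, 276, 346 and 347 CPM in wild-type G1 and 4.22, 5.72, 7.42 and 5.90 CPM in wild-type S. The authors counted with strand, so that transcripts on the opposite strand of such genes were not counted for them.

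Genes of Ty retrotransposons, which are in no list, were chosen after their values were seen. The Ty3 retrotransposons hold 3 genes in the annotation, of which the 2 that were tested both fell. YIL082W-A had 73787, 72280, 75348 and 69315 counts in wild-type G1 and 8883, 7929, 10871 and 12314 in wild-type S (log2 fold change -2.72), and YGR109W-B had a log2 fold change of -2.56. The 2 Ty4 genes tested fell as well, with a median of -2.91. Of 19 Ty1 genes tested, 14 fell and 0 rose, with a median of -0.75, and of 8 Ty2 genes, 7 fell and 1 rose. Copies of these elements are nearly identical and pairs that map to several places were left out, so that the value of a single copy is uncertain. Features named as tRNA genes made up 0.108% ± 0.00410 (SD, n = 4) of gene counts in the wild-type G1 samples and 0.00489% ± 0.000741 in those of wild-type S. Only 17 of 252 were tested, 16 of them fell and the median was -3.80. Since the RNA was selected for poly(A) tails, these counts need not reflect mature tRNA.

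**Figure D5:**
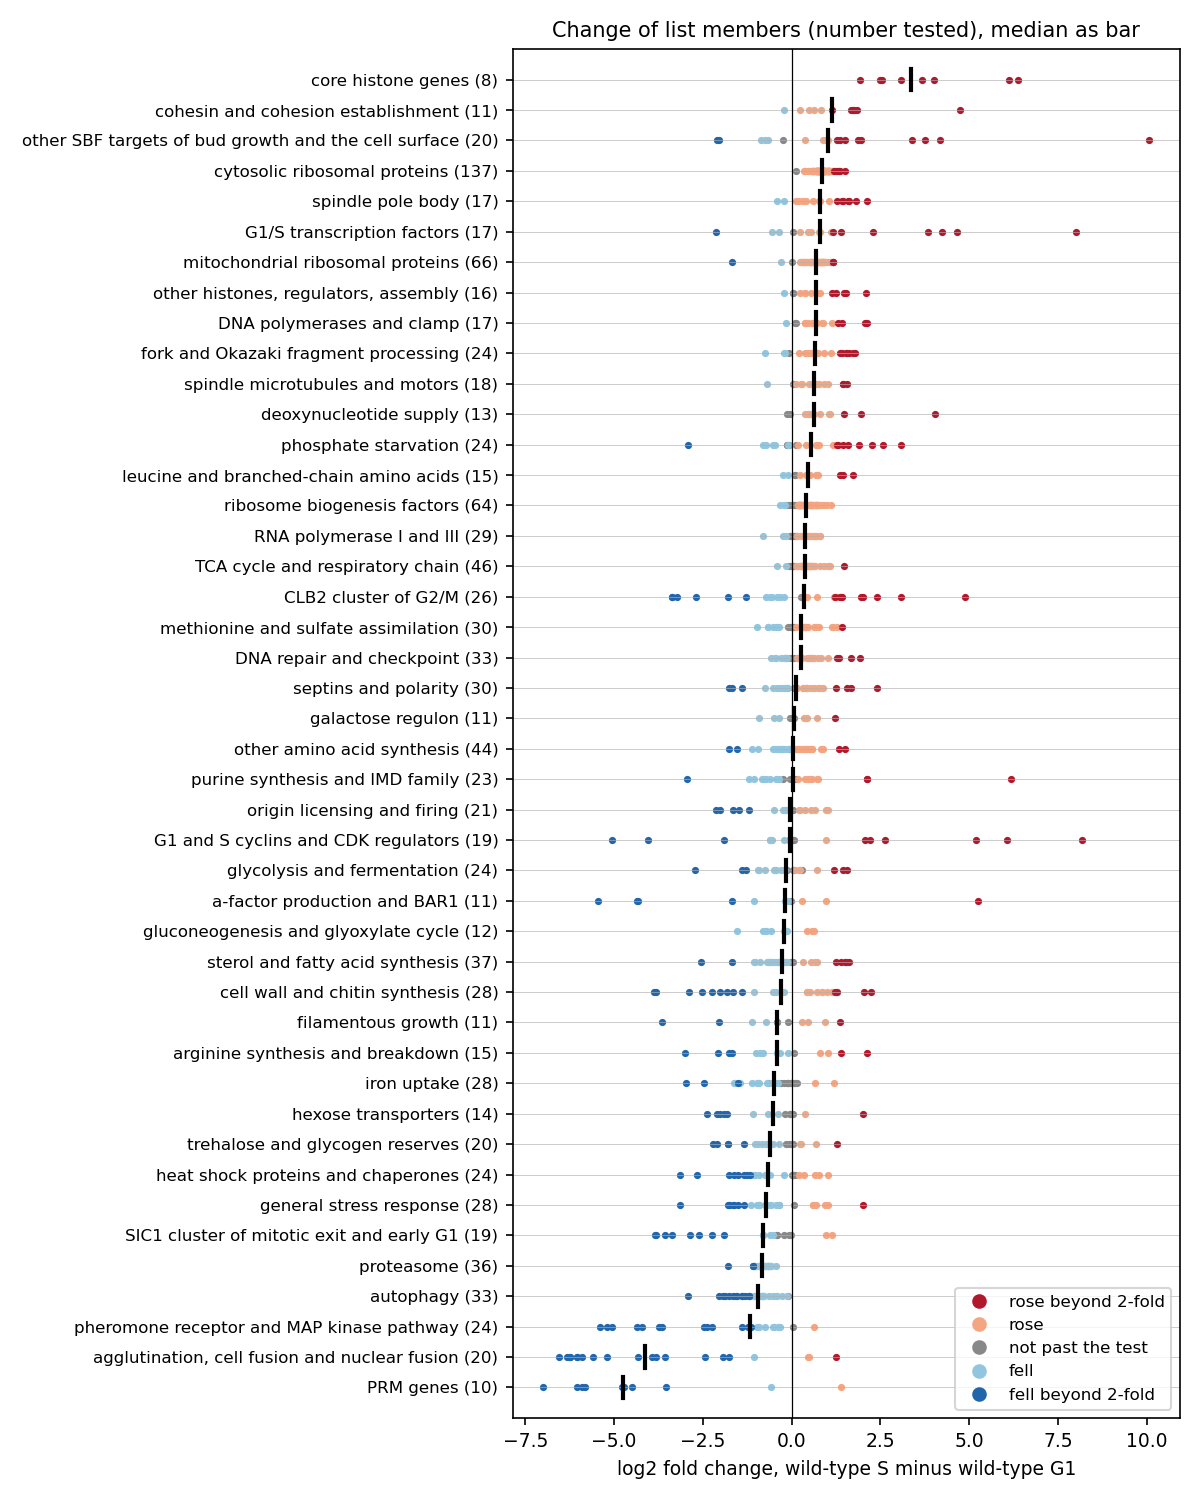
Log2 fold change, wild-type S minus wild-type G1, of the members of the gene lists (the lists used as checks, tRNA and snoRNA genes are not drawn) with the number tested in brackets, ordered by the median (black bar). Red and blue points changed beyond 2-fold, pale points passed the test, and grey points did not. Of the lists drawn, the core histone genes have the highest median (3.37) and the PRM genes the lowest (-4.75), and all 36 proteasome genes lie below 0.

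Genes of growth were higher in wild-type S in a broad and shallow way. Of 137 cytosolic ribosomal protein genes, 136 rose, 7 of them beyond 2-fold, and the median log2 fold change was 0.85, against -0.02 for all genes tested. Their sum was 73532 to 99797 CPM in wild-type G1, where replicates 1 and 2 were above replicates 3 and 4, and 151539 to 160477 CPM in wild-type S. RPL9A rose most, from 390 ± 79.5 to 1108 ± 44.0 CPM, and RPL15B did not pass the test (0.12). Mitochondrial ribosomal protein genes followed, with 63 of 66 that rose and a median of 0.69, and MRP8 as the main exception (-1.68). Of 64 ribosome biogenesis factors, 48 rose, 0 beyond 2-fold, and of 29 genes of RNA polymerases I and III 20 rose. The TCA cycle and the respiratory chain had 39 of 46 members that rose, led by cytochrome c, CYC1, at 2.80-fold.

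Genes of protein turnover moved the other way. All 36 proteasome genes fell, where 43.3% of all genes did, with a median of -0.83, from RPN10 (-0.44) to the polyubiquitin gene UBI4 (-1.78), which the list includes. Their sum was 11605 to 11669 CPM in wild-type G1 and 6357 to 6590 CPM in wild-type S. The next largest fall was that of the lid subunit gene RPN11 (-1.09). RPN4, the transcription factor of the proteasome genes, had 172, 160, 312 and 328 CPM in wild-type G1 and 127 ± 5.01 CPM in wild-type S. Of 33 autophagy genes, 32 fell, 13 of them beyond 2-fold. ATG8, which is bound to the membrane of the autophagosome, had 111, 99.9, 116 and 110 CPM in wild-type G1 and 13.4, 13.6, 16.3 and 14.6 CPM in wild-type S, 7.55-fold lower (log2 fold change -2.91). ATG13 was the member that did not pass the test (-0.10).

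Stress genes were mostly lower in wild-type S. Of 28 genes of the general stress response, 20 fell and 6 rose, and of 24 heat shock and chaperone genes, 14 fell and 5 rose. The summed level of the heat shock list was 21959, 22176, 27097 and 27376 CPM in wild-type G1. In wild-type S it was 22123 to 23274 CPM, so that only replicates 3 and 4 of wild-type G1 lay above it. HSP26, a small heat shock protein gene, fell 8.95-fold from 74.2 ± 9.70 CPM, and SSE2 had 223, 223, 463 and 460 CPM in wild-type G1 and 53.6 ± 4.498 CPM in wild-type S. HSP104 had a log2 fold change of -1.62. HSP12, another stress marker, moved the opposite way, from 94.9 ± 19.9 to 153 ± 19.5 CPM, and the ribosome-associated chaperone genes SSB1 and SSB2 rose with log2 fold changes of 1.01 and 0.78.

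Galactose genes were high in both groups, though an addition of galactose is recorded for wild-type G1 only. The paper's methods describe release into medium with the appropriate sugar and do not name it for these samples. The reason for the high level in wild-type S was not tested. GAL1, the galactokinase gene, had 8519, 9015, 9573 and 9803 CPM in wild-type G1 and 9671, 10099, 9746 and 9401 CPM in wild-type S, which overlap (adjusted p = 0.274), though it passed the test with DESeq2 (log2 fold change 0.11). The transporter gene GAL2 rose 1.65-fold. Of the 11 genes of the regulon, 5 rose and 3 fell, and its summed level was 25348 to 28168 CPM in wild-type G1 and 30578 to 33589 CPM in wild-type S. Of 14 genes of hexose transport and sensing tested, 8 fell, 5 of them beyond 2-fold, and 2 rose. The summed level of the list was 734, 790, 469 and 446 CPM in wild-type G1 and 468 to 535 CPM in wild-type S. HXT7 rose from 12.7 ± 7.55 to 51.3 ± 2.32 CPM and its near-identical neighbour HXT6 had 44.5, 58.9, 10.1 and 12.9 CPM in wild-type G1 and 6.06 ± 1.59 CPM in wild-type S, and their counts may be split between them. In glycolysis, 7 of 24 genes rose and 11 fell, and the summed level of 56265, 58255, 79331 and 81151 CPM in wild-type G1 lay on both sides of the 59711 to 61510 CPM in wild-type S, below it in replicates 1 and 2 and above it in replicates 3 and 4. ENO1 fell 6.63-fold and HXK2 rose with a log2 fold change of 1.57.

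Several nutrient programmes differed between the groups and, within wild-type G1, between replicates. Of 24 phosphate genes, 14 rose, 8 of them beyond 2-fold. PHO84, the phosphate transporter gene, had 663, 757, 91.9 and 88.1 CPM in wild-type G1 and 2674, 2715, 2151 and 1929 CPM in wild-type S, so that the rise was several times larger against replicates 3 and 4. SPL2 and VTC3, which act on phosphate uptake and polyphosphate, rose 8.58-fold and 4.76-fold, and PHM8 fell 7.54-fold. Of 28 iron uptake genes, 15 fell and 2 rose. FIT2, a wall protein of iron uptake, had 136, 146, 18.3 and 18.6 CPM in wild-type G1 and 25.5, 26.8, 24.5 and 29.0 CPM in wild-type S, and its direction turned with replicates 3 and 4 only (0.54 against -1.59). TIS11, which degrades mRNAs in low iron, fell in both pairs, from 144, 142, 37.4 and 36.1 CPM to 11.4 ± 0.838 CPM.

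Of 23 genes of purine synthesis and the IMD family, 10 rose and 9 fell, with a median log2 fold change of 0.04. The IMP dehydrogenase genes IMD2, IMD3 and IMD4, which act in GMP synthesis, rose together. IMD2, which encodes IMP dehydrogenase and lies on chromosome 8 (554396 to 555967), had 14.9, 12.6, 17.6 and 20.5 CPM in wild-type G1 and 974, 1001, 1375 and 1403 CPM in wild-type S, 72.4-fold higher (log2 fold change 6.18, standard error 0.19, adjusted p = 3.76e-12). Its paralogues IMD3 and IMD4 rose 4.36-fold and 4.35-fold. These genes are alike in sequence, and their counts are of pairs that map to 1 place. ADE12 of the AMP branch did not follow and fell with a log2 fold change of -0.60. ADE13, which is not specific to that branch, fell with -1.06. ADE17, which acts in the last steps of IMP synthesis before the branches part, had 68.3, 69.9, 179 and 183 CPM in wild-type G1 and 16.04 ± 1.603 CPM in wild-type S. Arginine synthesis fell and breakdown rose: ARG3 fell 8.12-fold and ARG1 with a log2 fold change of -1.77, and CAR2 and CAR1 rose with 2.12 and 1.40. Of 15 genes of branched-chain amino acids, 11 rose, led by LEU9 (1.73), and of 30 methionine genes 16 rose, 1 beyond 2-fold.

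Lipid synthesis was split by pathway. Of 37 genes, 25 fell and 9 rose. The elongases of long fatty acids ELO2 and ELO3 rose with log2 fold changes of 1.53 and 1.63, as did the acetyl-CoA carboxylase gene ACC1 (1.26). Most sterol genes fell by less than 2-fold, among them ERG1 (-0.89) and ERG11 (-0.55), and ERG24 fell 5.86-fold from 1011 ± 43.4 CPM. ERG4, the last enzyme of ergosterol synthesis, rose (1.40). Trehalose and glycogen genes fell in 12 of 20 cases, with the glycogen phosphorylase gene GPH1 at -2.10 and the trehalase gene NTH1 at -2.23, while GLG2 rose (1.26). In the remaining lists, 21 of 44 genes of other amino acids rose and 15 fell. Of 12 genes of gluconeogenesis and the glyoxylate cycle, 3 rose and 7 fell. Of 11 filamentous growth genes 4 rose and 4 fell, and of 34 snoRNA genes tested 10 rose and 4 fell.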

How the data were processed

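Polyadenylated RNA of 4 wild-type G1 and 4 wild-type S samples was compared. The 4 samples of the third group entered the filter, the scaling and the estimate of the spread. With only the 8 wild-type samples, 5621 genes were tested and 4611 passed. The authors deposited raw counts of read pairs per gene, made from 42-base paired reads with STAR 2.7.10a on sacCer3 and htseq-count (HTSeq 2.0.1), with strand and without pairs that map to several places. The labels also name DESeq2 1.36.0 and SAMtools 1.12. Of 6412 features, 6177 were matched to the R64 annotation, and the names of tRNA features were among those not matched. Pairs on no feature were 5.03% in the wild-type G1 samples, against 3.48% for wild-type S. Genes were filtered with filterByExpr (minimum count 10), scaled with TMM and tested with edgeR 4.0.16 in R 4.3.3 (glmQLFit and glmQLFTest on 12 samples in 3 groups, and glmTreat against a log2 fold change of 1), with p-values adjusted after Benjamini and Hochberg and a threshold of 0.1. The standard error given is the log2 fold change divided by the root of F. The groups and replicate numbers come from the labels. The deviations of samples with the same number from their group means correlated at 0.1774, 0.1041, 0.1028 and 0.1601 across genes. Samples with different numbers of the same set (1 and 2, or 3 and 4) correlated at 0.0733 to 0.2, so that the sets rather than the single numbers are alike. By the rule that each pair exceed 0.1, a replicate block by number was fitted as an alternative. Some samples with different numbers also exceeded 0.1, so that the rule cannot show that equal numbers are pairs.

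The 49 gene lists, the motifs and the members were chosen with earlier results of these data known. Named genes are the 12 largest rises and falls beyond 2-fold (coding, a group mean of 10 counts or more, no overlap), key genes of the lists, and in each list the 3 members with the largest change in each direction. Genes said to be chosen after their values were seen, and a few members given for completeness of a complex, fall outside this rule. The test was tried on simulated counts. DESeq2 1.42.0, other scalings and filters, the samples in the fit and leaving out replicates were alternatives. Python 3.11.15 with pandas 2.3.3 and scipy 1.17.1 was used elsewhere. One further motif is not reported here.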

Additional observations from a re-analysis of the deposited data

Results flagged for a closer look

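Single replicates that stood apart from the other 3 of their group were sought among 289 genes in both groups (Dixon's test at its 95% critical value, groups with at least 40 counts). Of 566 groups, 16 (2.83%) were found. The rate of about 1 in 20 by chance holds for independent samples. Here the replicates were alike in pairs, which leaves less room for a single one to stand apart, so that the shares cannot be compared. The highest sample stood apart for CDC42 in wild-type G1 (replicate 4, 228.7 CPM, others 218.9 to 220.1), CHS3 in G1 (replicate 2, 880.9 CPM, others 816.6 to 824.9), HXT3 in G1 (replicate 4, 16.23 CPM, others up to 14.11), HHF2 in wild-type S (replicate 1, 1311 CPM, others 1189 to 1204), RFA3 in S (replicate 3, 140.7 CPM), RPC40 in S (replicate 3, 427.7 CPM), SIS1 in S (replicate 4, 432.6 CPM) and TPS1 in S (replicate 2, 243.5 CPM). The lowest stood apart for CLB1 in G1 (replicate 2, 2.087 CPM, others 3.141 to 3.214), RNR1 in G1 (replicate 1, 52.94 CPM, others 57.74 to 57.9), GRE1 in S (replicate 3, 1.464 CPM), HSP26 in S (replicate 2, 7.116 CPM), ICL1 in S (replicate 1, 99.1 CPM), PGK1 in S (replicate 3, 2701 CPM, others 2851 to 2868), SPC29 in S (replicate 2, 18.81 CPM) and TDH3 in S (replicate 4, 15401 CPM). The gaps are small beside the differences between the groups for CLB1, RNR1, HHF2, CHS3 and HSP26.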

How the results depend on the processing

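The number of genes called ranged from 4275 (counts summed within replicates 1 and 2 and within replicates 3 and 4) to 4892 (replicates 3 and 4 only) against 4743, and that beyond 2-fold from 736 to 1064, under the same settings, against 855. With the replicate block 4760 and 871 genes passed, and the spike-in share differed by -0.2182 percentage points with and without it (exact p = 0.375 with it). Among the named genes the block ended the call of RPC10 (log2 fold change -0.17 without it) and added ADH1 and PHO81, and it changed no other call. Leaving out 1 replicate gave 4646 to 4731 genes, 814 to 882 beyond 2-fold, and a difference of the spike-in share of -0.2954 to -0.1597. Scaled by spike-ins, all genes tested had a median of 0.05 (log2) against -0.02. Of 434 named genes, 25 lost their call with summed counts and 20 with spike-in scaling. Of the named genes called, the sign of 4 turned in 1 pair of replicates, as did that of 25 not called, DSE2 among them: with replicates 3 and 4 only, CHS2 had -0.0269 and FIT2 0.5371, and with replicates 1 and 2 only, HSC82 had 0.0142 and IDP2 0.0503. The cause was not tested. With matches on the strand of the gene only, 2.149% of promoters of genes tested held an SCB and 3.671% a PRE, and the share with MCB, which reads alike on both strands, stayed at 3.653%. Depth limits genes such as CLB6 and PRM9, which had few counts in wild-type G1.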
